A study of Mus musculus with 11 samples.

Results

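The lateral prosensory cells of the mouse cochlear duct at embryonic day (E) 14 were described as 107 of the 5253 E14 cells in the deposited table, 49 in replicate 1 and 58 in replicate 2, out of 30634 cells at all ages. They were chosen by the measured values of 6 genes, so those genes are no finding. A cell had to have a Prox1 value above 0 or an Fgfr3 value of at least 1.5, with Fgf20, Atoh1 and Bmp4 at 0 and Oc90 under 2.5. Values are natural logarithms of 1 plus a gene's count per 10000 captured transcripts of the cell, each transcript carrying a unique molecular identifier (UMI). All animals were wildtype CD1 mice without treatment, and the libraries are droplet captures (10x Chromium) of dissociated cochlear sensory epithelium: 2 at E14, 3 at E16, 4 at postnatal day (P) 1 and 2 at P7. The cochleae of several littermates, of either sex, were pooled before capture, so that a library is the replicate and a single animal cannot be followed. The gated cells were compared with 4687 E14 reference cells in which Fgf20, Fgfr3, Prox1 and Atoh1 were all at 0 (1928 and 2759 in the 2 replicates), and with 182 E14 Fgf20-positive cells in which Fgfr3, Prox1 and Atoh1 were at 0 (76 and 106). The same gate at E16 held 102, 224 and 133 cells.

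The prosensory domain is the strip of the duct floor from which the hair cells and supporting cells of the organ of Corti arise. Its cells express Sox2 and leave the cell cycle as they begin to express the cyclin-dependent kinase inhibitor Cdkn1b (p27Kip1). The domain has a medial side, marked by the fibroblast growth factor Fgf20, next to Kolliker's organ, and a lateral side, marked by the receptor Fgfr3 and the homeobox factor Prox1, where outer hair cells, pillar cells and Deiters' cells form. Atoh1 starts hair cell differentiation, Bmp4 marks the lesser epithelial ridge on the outer side of the domain, and Oc90 marks the roof of the duct.

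The E14 libraries held 10284467 and 14420835 UMIs with a median of 3507.5 and 3317 per cell. They include 340 and 552 cells of over 3000 genes, so the table was not shown to be the set that the study's stated filters kept. The gated cells had medians of 3493 and 2965.5 UMIs, the reference cells 3411 and 3243 and the Fgf20-positive cells 3682 and 4163. Gated cells made up 2.23% of replicate 1 (exact 95% interval 1.65 to 2.94) and 1.90% of replicate 2 (1.45 to 2.45) of the deposited cells. These intervals, and all others given on counts, cover counting error only. 11 cell barcodes occurred in both E14 libraries, and 1 gated cell carried 1 of them. Since 2 E14 libraries were analysed, E14 levels are given for replicate 1 and replicate 2, as the mean over the cells of the class in UMIs per 1000000 UMIs (CPM). Shares of cells, and levels on either side of the gate's edge, pool both replicates unless split.

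Before the exclusion genes were applied, 214 E14 cells passed on Prox1 or Fgfr3, 111 and 103 in the replicates. Of these, 47 held Atoh1, 43 Bmp4 and 22 Fgf20, and 13 had Oc90 at 2.5 or above, with some cells failing on more than 1 gene. Of the 107 cells that stayed, 32 held UMIs of both genes, 46 held Fgfr3 but no Prox1 and 29 held Prox1 but no Fgfr3. Of the cells that held 1 of the genes, 26 had a single UMI of Prox1 and 17 a single UMI of Fgfr3. Just inside the Fgfr3 threshold (values of 1.5 to 2 with Prox1 at 0) lay 30 cells with a median of 2800.5 UMIs. Just outside it (above 0 and under 1.5, no exclusion gene) lay 50 cells with a median of 4478.5 UMIs. The threshold thus took cells in which 1 UMI weighs more. Across this edge the mean level of Bmp2 was 67.8 CPM inside and 42.6 CPM outside, and that of Lsamp 130 and 91.6 CPM. Nrcam averaged 120 and 59.6 CPM, Tgfbr1 92.2 and 66.9 CPM, and Ngfr 86.5 and 152 CPM. Fzd9 averaged 49.6 and 73.3 CPM, Elmo1 35.4 and 44.2 CPM, Sox2 139 and 183 CPM and Cdkn1b 101 and 141 CPM. The order differed between the replicates for Ngfr (101 and 242 CPM in replicate 1, 72.3 and 45.9 CPM in replicate 2), Tgfbr1 (51.3 and 56.0, then 133 and 79.8), Elmo1 (64.4 and 55.3, then 6.49 and 31.04) and Cdkn1b (51.4 and 189, then 151 and 85.6). The cells just outside thus held these transcripts too, and the means, which were not tested, lay higher on either side depending on the gene.

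**Figure D1:**
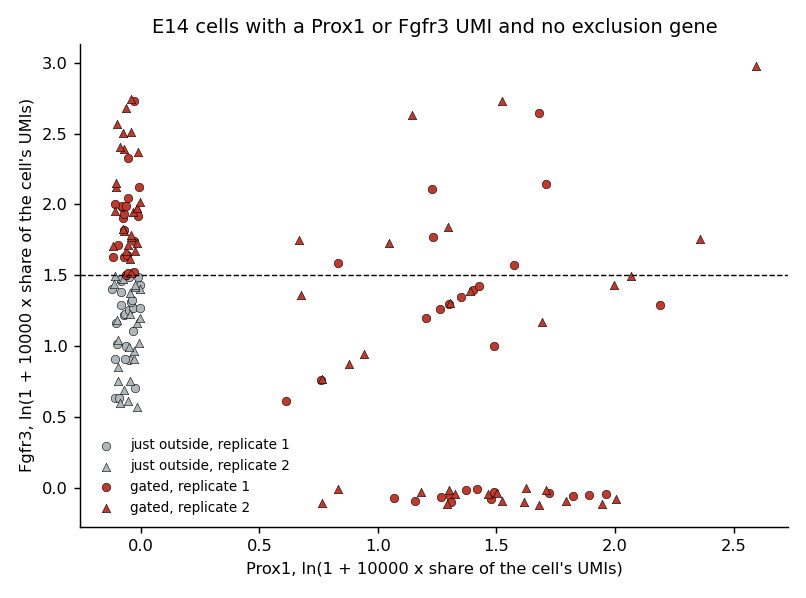
Prox1 (x axis) and Fgfr3 (y axis) values of each E14 cell with a UMI of either gene and no exclusion gene, both as ln(1 + 10000 x share of the cell's UMIs), with circles for replicate 1 and triangles for replicate 2. The dashed line is the Fgfr3 value of 1.5; the 107 gated cells are red, the 50 cells just outside are grey, and values of 0 are spread slightly below 0 so that single cells can be seen.

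The label was set beside genes that took no part in the gate. The study listed the 7 lateral markers used here on these same libraries, describing Bmp2, Ngfr and Nrcam as already known in these cells. The 7 therefore describe the class and are no independent check. Of 7 further lateral markers (Bmp2, Lsamp, Ngfr, Nrcam, Tgfbr1, Fzd9 and Elmo1), at least 1 had a UMI in 82 of 107 gated cells (76.6%), in 1265 of 4687 reference cells (27.0%) and in 120 of 182 Fgf20-positive cells (65.9%). At least 3 had one in 36 (33.6%), 34 (0.725%) and 17 (9.34%). The other 25 gated cells held none of the 7. Sox2 had a UMI in 39 of the gated cells and Cdkn1b in 32, with 14 holding both and 50 neither. With every cell thinned to 1500 UMIs, Bmp2 remained in 12.2% of the gated cells (6.63 to 19.9), 0.448% of the reference cells and 2.20% of the Fgf20-positive cells. It remained in 0.218% of the Oc90-high roof cells, taken as the background. Without thinning the shares were 25.2%, 0.981%, 4.95% and 1.42%. Sox2 remained in 22.4%, 3.93%, 22.5% and 0.545% of these classes, and Isl1 in 71.0%, 29.3%, 76.9% and 6.87%. Fzd9 remained in 7.48%, 2.26%, 10.4% and 0.982% (26.2%, 6.10%, 29.7% and 2.62% without thinning), so that its share did not lie above that of the Fgf20-positive cells. By these markers the class as a whole carried prosensory and lateral genes relative to the reference, while many single cells showed none of them at this depth.

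Hair cell transcripts were the other cell type that moved with the gate. Although Atoh1 was at 0 in every gated cell, Pou4f3, a transcription factor of differentiating hair cells, had UMIs in 13 of the 107 (43 UMIs, at most 9 in a cell), against 8 of 4687 reference cells and 7 of 182 Fgf20-positive cells. Ccer2 had 126 UMIs in 8 gated cells, 60 of them in a single cell. The hair cell genes Gfi1, Lhx3, Barhl1 and Pvalb had none, and Myo7a had a UMI in 1 cell. Summed over the hair cell list, the level was 1471 and 1130 CPM in the gated cells, 331 and 327 CPM in the reference cells and 503 and 408 CPM in the Fgf20-positive cells. The comparisons were therefore also run without the cells with a Pou4f3 UMI. Mesenchymal genes summed to 5.48 and 9.20 CPM in the gated cells (47.6 and 40.4 CPM in the reference), with 1 gene of 10 detected in each library, Col1a2 in replicate 1 and Postn in replicate 2. None of 6 immune genes was detected. Glial genes summed to 40.1 and 139 CPM (80.6 and 86.6 in the reference) and neuronal genes to 27.1 and 23.5 (45.5 and 62.7). Haemoglobin genes summed to 51.0 and 0 (40.9 and 0.990) and endothelial genes to 36.8 and 19.2 (19.2 and 14.2). Roof genes summed to 691 and 465 CPM against 2189 and 1967 CPM, and the dissociation stress list to 9786 and 7188 CPM against 9063 and 6881 CPM.

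Against the E14 reference, 157 of 8882 genes tested were higher in the gated cells (1.77%) and 211 were lower (2.38%) at an adjusted p under 0.05 in limma. The 6 gate genes were left out, and the Benjamini-Hochberg adjustment covered every gene tested. The spread was estimated over the 5 E14 and E16 libraries, with library as a block and 5 residual degrees of freedom per gene. Fold changes are differences of log2(CPM + 10), which understates the change of weakly expressed genes. The median gene moved by -0.07. The calls depended on both E14 libraries: without replicate 1, 37 genes were higher and 45 lower, and without replicate 2, 30 and 29; without E16 replicate 2 or 3 there were 331 and 326 lower. Of the genes called in the full fit, 26 higher and 21 lower were also called both times an E14 library was left out. Among the genes named here these were Lsamp, Sox2, Isl1, Hey1, Hes6, Ntf3, Socs2, Pcp4, Mdm1, S100a1, Sall3, Tectb, Cryab, Serpine2 and Fkbp1a on the higher side and Igf1, Krt19, Gpc3, Epha7, Ptn, Mia, Lum, Meg3, Tuba1b and Sparcl1 on the lower. Every other call against the reference named below was lost in at least 1 of these fits. Without the cells with a Pou4f3 UMI the calls of Ccer2, Cib2, Hes5, Fgfr1 and Nectin3 on the higher side and Tbx2, Espn, Cdc20, Sfrp1 and Fgf9 on the lower were lost, and Pou4f3 was no longer tested. In that fit the change was -1.54 for Tbx2 (limma adjusted p = 0.058), 1.43 for Hes5 (0.0664) and 0.53 for Ccer2 (0.754).

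The 7 lateral markers were higher in the gated cells, all 7 of them, with a median log2 fold change of 2.03. The study listed these genes on these same libraries, so the count is not independent evidence of its direction. It describes Bmp2, Ngfr and Nrcam as known in these cells before. For Tgfbr1 and Fzd9 it also reports in situ hybridization on cochlear sections at E16 and P1. A longer list for these cells was drawn by the study from these same libraries. Of its 28 genes, 28 were higher, with a median of 1.96, while 8 were higher and 2 lower against the Fgf20-positive cells (median 0.72). Of the 7, 1 was called without E14 replicate 1 and 2 were called without replicate 2. Bmp2, a secreted ligand of the bone morphogenetic protein family (GRCm38 chromosome 2, 133552159 to 133562885, plus strand), was at 132 and 56.5 CPM in the gated cells, 2.30 and 3.83 CPM in the reference and 18.3 and 10.3 CPM in the Fgf20-positive cells. Both gated libraries lay above every other one, and the change from the reference was 2.90 (SE 0.41, limma adjusted p = 0.00022). Without E14 replicate 1 it was 2.27 with an adjusted p of 0.115. Lsamp, a cell-surface protein of the IgLON adhesion family (chromosome 16, 39984361 to 42181679, plus strand), was at 131 and 90.6 CPM in the gated cells, 7.62 and 7.55 CPM in the reference and 50.7 and 55.0 CPM in the Fgf20-positive cells. Its change from the reference was 2.76 (SE 0.31, limma adjusted p = 1.78e-05). The Fgf20-positive level lay between the other levels, and none of the libraries overlapped.

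Nrcam, an L1-family adhesion molecule (chromosome 12, 44328885 to 44601964, plus strand), was at 105 and 73.9 CPM against 10.2 and 10.1 CPM in the reference, and changed by 2.29 (SE 0.39, limma adjusted p = 0.0016). Ngfr, the p75 neurotrophin receptor (chromosome 11, 95568818 to 95587735, minus strand), was at 53.2 and 68.1 CPM against 8.76 and 7.79 CPM, and changed by 1.94. Tgfbr1, the type I receptor of transforming growth factor beta (chromosome 4, 47353222 to 47414931, plus strand), was at 131 and 157 CPM against 30.6 and 36.7 CPM, and changed by 1.82 (SE 0.35, limma adjusted p = 0.0039). Its Fgf20-positive levels were 95.7 and 41.3 CPM, so replicate 1 of that class came near the gated cells. The Wnt receptor Fzd9 (111 and 88.3 CPM against 19.4 and 16.7 CPM) and Elmo1, a regulator of the small GTPase Rac (73.9 and 60.02 CPM against 9.84 and 7.75 CPM), changed by 1.96 and 2.03.

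Among genes of the whole prosensory domain, Sox2 was at 261 and 90.2 CPM in the gated cells, 43.0 and 19.3 CPM in the reference and 324 and 114 CPM in the Fgf20-positive cells. It was 2.06 higher than in the reference (SE 0.22, limma adjusted p = 1.33e-05) and differed by -0.30 from the Fgf20-positive cells (SE 0.22, adjusted p = 0.606), with replicate 1 above replicate 2 in all classes. Cdkn1b was at 79.9 and 129 CPM against 22.3 and 19.6 CPM in the reference, a change of 1.85, and at 86.6 and 101 CPM in the Fgf20-positive cells. The LIM-homeodomain factor Isl1 was at 958 and 1000 CPM in the gated cells, 405 and 345 CPM in the reference and 1344 and 1617 CPM in the Fgf20-positive cells. This placed it higher than the reference (1.36) and lower than the medial cells (-0.59, SE 0.15, limma adjusted p = 0.0497). Jag1, a Notch ligand of the prosensory domain, was at 11.7 and 19.2 CPM in the gated cells, 10.9 and 14.3 CPM in the reference and 63.9 and 49.1 CPM in the Fgf20-positive cells. Its level in the gated cells could not be told from the reference (0.16, SE 0.31, adjusted p = 0.904) and was lower than on the medial side (-1.39, SE 0.31, limma adjusted p = 0.0253). That call was lost without E14 replicate 1 (-1.02, adjusted p = 0.545), E14 replicate 2 (-1.77, adjusted p = 0.269) or E16 replicate 1, with E14 alone, without the block or the filter, in cells of 3000 to 8000 UMIs and without the cells with a Pou4f3 UMI. Without the cells with a Pou4f3 UMI the change of Jag1 from the medial side was -1.21 (SE 0.31, limma adjusted p = 0.0712). Lfng, a glycosyltransferase that modifies Notch, was at 17.9 and 44.1 CPM against 9.26 and 10.7 CPM in the reference (0.96, SE 0.31, adjusted p = 0.115) and 59.2 and 47.5 CPM in the Fgf20-positive cells.

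**Figure D2:**
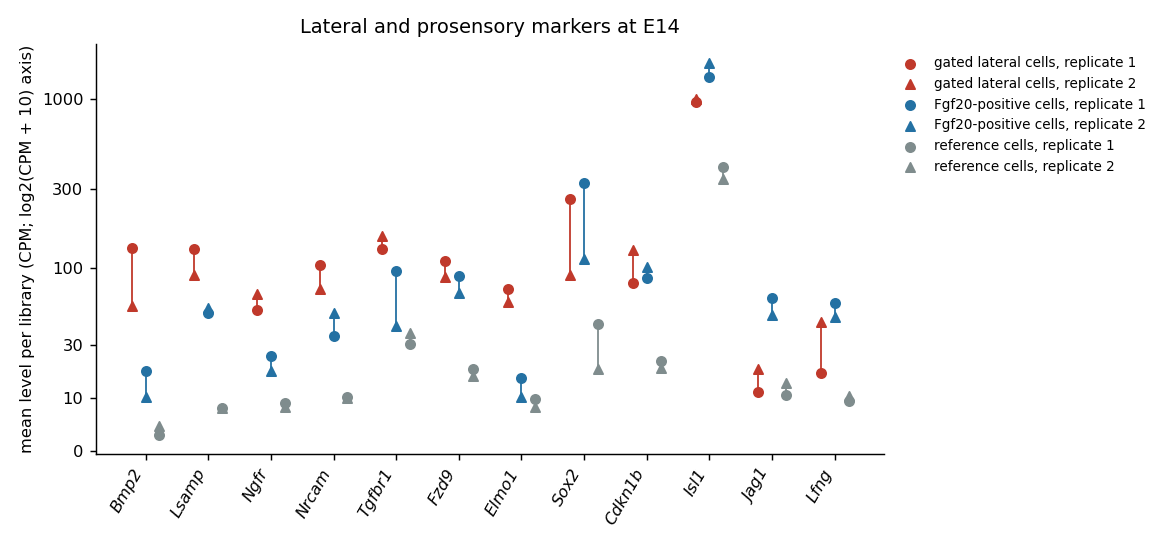
Mean level (y axis, CPM on a log2(CPM + 10) axis) of 7 lateral markers and 5 prosensory markers in the gated (red), Fgf20-positive (blue) and reference (grey) cells of the 2 E14 libraries, with a line joining both replicates of a class. All 7 lateral markers lay above the reference in both libraries, and Jag1 lay with the reference, at 11.7 and 19.2 CPM.

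Beside the list counts against the reference that follow, 1.77% of all genes tested were higher and 2.38% were lower. The Notch pathway sets hair cells apart from supporting cells by signals between neighbors. Of 25 genes listed, 19 were tested: 4 were higher in the gated cells, none was lower, and the list's median change was 0.16 (2 were higher with E14 replicate 1 or 2 left out). The 4 are transcription factors of the Hes and Hey family. Hey1 was at 491 and 225 CPM against 119 and 56.9 CPM in the reference and 360 and 174 CPM in the Fgf20-positive cells, a change from the reference of 1.89. Hey2 was at 38.5 and 38.5 CPM against 7.86 and 6.43 CPM, a change of 1.5. Hes6, which antagonizes other Hes factors and is also a gene of early hair cells, was at 643 and 630 CPM against 114 and 108 CPM in the reference. Its change of 2.42 was 1.55 (adjusted p = 0.00176) without the cells that held Pou4f3. Hes5, a target of Notch signaling, was at 31.9 and 10.8 CPM against 0.471 and 0.906 CPM, a change of 1.47 at the edge of the test (SE 0.41, limma adjusted p = 0.0499) and 1.43 with an adjusted p of 0.0664 without those cells. Hes1 was at 737 and 264 CPM against 933 and 433 CPM and did not pass (-0.52, adjusted p = 0.124).

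In the fibroblast growth factor list (14 of 23 genes tested, median 0.34), 3 genes were higher and 1 was lower. The receptor Fgfr1 was at 231 and 150 CPM against 80.6 and 83.4 CPM in the reference and 77.3 and 89.6 CPM in the Fgf20-positive cells. It was higher than the reference by 1.09 and than the Fgf20-positive cells by 1.07 (limma adjusted p = 0.0408). Etv1 (37.3 and 64.1 CPM against 8.66 and 8.49 CPM) and Etv4 (70.5 and 52.4 CPM against 16.8 and 13.9 CPM), ETS factors induced by this pathway, were higher by 1.67 and 1.48, while Etv5 did not pass (1.02, adjusted p = 0.149). The ligand Fgf9 was lower (-1.45), at 10.6 and 2.23 CPM against 35.4 and 31.3 CPM. In the list of bone morphogenetic protein and transforming growth factor genes (25 of 38 tested, median 0.13), 4 were higher and none was lower. Besides Bmp2 and Tgfbr1 these were Id2 and Id4, inhibitors of basic helix-loop-helix factors. Id2 was at 1824 and 1717 CPM against 1148 and 1005 CPM, a change of 0.71. Id4 was at 492 and 394 CPM against 280 and 211 CPM in the reference and 207 and 101 CPM in the Fgf20-positive cells, higher by 0.83 and by 1.54. Id1 and Id3 had changes of 0.33 and 0.32 and did not pass.

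In the Wnt list (27 of 46 genes tested, median 0.06), 2 were higher and 3 were lower, beside 1.77% and 2.38% of all genes tested. Lgr5, a receptor for R-spondins, was at 122 and 135 CPM against 22.2 and 19.4 CPM, a change of 2.17, and Fzd9 has been given above. The R-spondin Rspo2, the ligand Wnt5a and the secreted inhibitor Sfrp1 were lower. Rspo2 was at 3.90 and 0 CPM against 48.9 and 39.0 CPM, Wnt5a at 8.78 and 6.84 CPM against 39.0 and 44.9 CPM, and Sfrp1 at 908 and 706 CPM against 1184 and 1061 CPM. Rspo2 rests on 1 UMI in 1 gated cell, and the reference level was 15.6 times the gated level, with an exact 95% interval of 2.80 to 619. Among otic transcription factors (22 of 38 tested, median 0.09), 8 were higher and 1 was lower; 4 were higher without E14 replicate 1 and 3 without replicate 2. Sox2, Sall3 (147 and 163 CPM against 34.2 and 35.1 CPM, 1.89), Sall1 (91.8 and 75.9 CPM against 15.2 and 17.4 CPM, 1.83) and Emx2 (146 and 141 CPM against 48.2 and 30.1 CPM, 1.67) changed the most. Gata3, needed for the growth of the cochlear duct, was at 566 and 654 CPM against 316 and 267 CPM, a change of 1.04. Tbx2, a T-box factor, was at 6.22 and 6.03 CPM against 39.6 and 39.1 CPM in the reference and 48.4 and 71.4 CPM in the Fgf20-positive cells. It changed by -1.61 and -2.1. Sox9 did not pass (-0.45, adjusted p = 0.224).

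In the list of adhesion molecules (16 of 25 tested, median 0.19), Lsamp, Nrcam, the IgLON protein Ntm (108 and 164 CPM against 44.6 and 51.6 CPM, 1.30) and the nectin Nectin3 (53.0 and 81.2 CPM against 19.6 and 19.2 CPM, 1.37) were higher. Cdh4, R-cadherin, was lower (24.5 and 0 CPM against 68.5 and 88.8 CPM, -2.25). Of 15 Eph receptors and ephrins tested (20 listed, median -0.18), Ephb1 was higher (78.1 and 98.2 CPM against 23.7 and 24.4 CPM, 1.52). Epha7 was lower, at 31.5 and 40.3 CPM against 234 and 239 CPM in the reference (-2.43) and 129 and 153 CPM in the Fgf20-positive cells. Ntf3, neurotrophin-3, which sustains the neurons of the spiral ganglion, was at 345 and 366 CPM against 82.2 and 87.6 CPM in the reference, a change of 1.95 (SE 0.23, limma adjusted p = 2.88e-05). It was at 420 and 356 CPM in the Fgf20-positive cells. Ntf3 and Ngfr were the members called among 5 tested of 14 listed neurotrophins and receptors.

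The 8 genes with the largest rise were Ccer2, Pou4f3, Pcp4, Bmp2, Mdm1, Lsamp, Tesc and Agr3. Pcp4, a calmodulin-binding peptide (chromosome 16, 96467606 to 96525793, plus strand), was at 303 and 369 CPM against 26.1 and 30.1 CPM in the reference and 200 and 229 CPM in the Fgf20-positive cells. Its change from the reference was 3.18 (SE 0.26, limma adjusted p = 6.1e-07). Mdm1, a microtubule-binding protein of centrioles (chromosome 10, 118141811 to 118168997, plus strand), was at 272 and 212 CPM against 22.4 and 29.4 CPM in the reference and 62.1 and 31.9 CPM in the Fgf20-positive cells. It was higher than the former by 2.80 and than the latter by 2.18 (SE 0.31). The calcium-binding protein Tesc was at 51.2 and 55.5 CPM against 0.505 and 0.425 CPM, and Agr3, an endoplasmic reticulum protein, at 85.2 and 193 CPM against 13.4 and 16.8 CPM. Socs2, a suppressor of cytokine signaling, had the smallest adjusted p of the genes named as higher, at 1387 and 1407 CPM against 256 and 260 CPM (2.39, SE 0.14, limma adjusted p = 7.64e-09). Its level in the Fgf20-positive cells was 1213 and 1049 CPM. Ccer2 was at 306 and 132 CPM against 9.94 and 16.0 CPM, a change of 3.22. Without the 13 cells with a Pou4f3 UMI its change was 0.53 with an adjusted p of 0.754. The same step took Pcp4 to 2.52 and the counts of genes called to 138 higher and 177 lower.

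In the list of later lateral supporting cell genes (20 of 22 tested, median 1.25), 10 were higher and 2 were lower at E14; without E14 replicate 1, 4 were higher, and without replicate 2, 2 were. Npy, a neuropeptide of later inner pillar cells, was at 44.7 and 106 CPM against 4.34 and 6.15 CPM in the reference, a change of 2.39, and at 56.0 and 124 CPM in the Fgf20-positive cells. S100a1 was at 539 and 513 CPM against 138 and 133 CPM (1.88), Emid1 at 227 and 182 CPM against 57.8 and 53.0 CPM (1.71) and the small heat shock protein Cryab at 2808 and 3297 CPM against 1219 and 1382 CPM (1.22). Several of these genes are also in other lists given here (Ngfr, Lgr5, Etv4, Hes5 and Hey2), and the list was drawn in part from this study's own later libraries. Against the Fgf20-positive cells the list's median was 0.03, with 3 of 20 genes higher and 4 lower. Compared with the reference, Tuba1b and Sparcl1 were lower, at 187 and 187 CPM against 472 and 515 CPM and at 31.0 and 11.95 CPM against 191 and 209 CPM. Among 9 of 22 hair cell genes tested, Pou4f3, Ccer2, Hes6 and Cib2 were higher and Espn was lower (8.38 and 4.57 CPM against 31.8 and 34.3 CPM). Without the Pou4f3-holding cells, 6 were tested and 1 was higher. Without E14 replicate 1, 1 was higher, without replicate 2, 2 were, and without the block 1 was, with none lower in these fits.

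Many genes of Kolliker's organ, the tectorial matrix, the interdental cells and the roof were lower. The reference was not freed of Bmp4 or Oc90 cells, as the gated class was, so part of the falls in roof and outer genes is set by the gate. Of 24 tectorial membrane and matrix genes tested, 13 were lower and 1, Tectb, was higher, with a median of -0.87. Of 12 genes of Kolliker's organ, the tall epithelium on the medial side, 6 were lower and 1 was higher, with a median of -1.71. The growth factor Ptn was at 230 and 220 CPM against 1059 and 1225 CPM (-2.29) and the secreted protein Mia at 221 and 206 CPM against 1141 and 1142 CPM (-2.37). The proteoglycan Lum was at 271 and 177 CPM against 1359 and 1203 CPM (-2.49), and the calcium-binding protein Calb1 at 12.9 and 15.7 CPM against 194 and 149 CPM (-2.89). Tectb, beta-tectorin of the tectorial membrane, was at 419 and 582 CPM against 133 and 172 CPM in the reference (1.64) and 767 and 1133 CPM in the Fgf20-positive cells (-0.90, limma adjusted p = 0.00369). Of the interdental genes, 4 of 6 tested were lower, as were 5 of 7 roof genes (median -1.99) and 2 of 9 lesser epithelial ridge genes, where Id2 was higher. Without E14 replicate 1, 1 interdental, 2 roof, 10 matrix and no lesser epithelial ridge genes were lower, and without replicate 2 these counts were 0, 2, 8 and 0. With a reference freed of Bmp4 and of high Oc90 too, 186 genes were higher and 234 lower, and 9 of 12 Kolliker's organ genes, 6 of 6 interdental genes, 5 of 6 roof genes and none of 7 lesser epithelial ridge genes were lower, while 2 of those 7 were higher.

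Igf1, a growth factor, had no UMI in any gated cell against 88.7 and 108 CPM in the reference. Over the pooled class this means at least a 15.2-fold lower level, with 3 UMIs in all 107 cells (7.16 CPM) as the floor. Krt19, a keratin, had 1 UMI, and the reference level was 53.3 times the gated level (exact 95% interval 9.55 to 2105). Gpc3, a heparan sulfate proteoglycan, had 3 UMIs, and its ratio was 14.8 (5.07 to 72.0). The Fgf20-positive cells lay nearer to the gated cells in these genes. Igf1 was at 16.35 CPM over that pooled class, which bounds the gated level as at least 2.28-fold lower. The ratio of the Fgf20-positive to the gated cells was 6.85 for Krt19 (1.07 to 286) and 2.15 for Gpc3 (0.615 to 11.5). The long noncoding RNA Meg3 was at 36.4 and 58.6 CPM against 293 and 484 CPM in the reference and 34.6 and 61.7 CPM in the Fgf20-positive cells, so that the fall (-2.78) was from the reference and not from the medial side (0.00, SE 0.26).

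**Figure D3:**
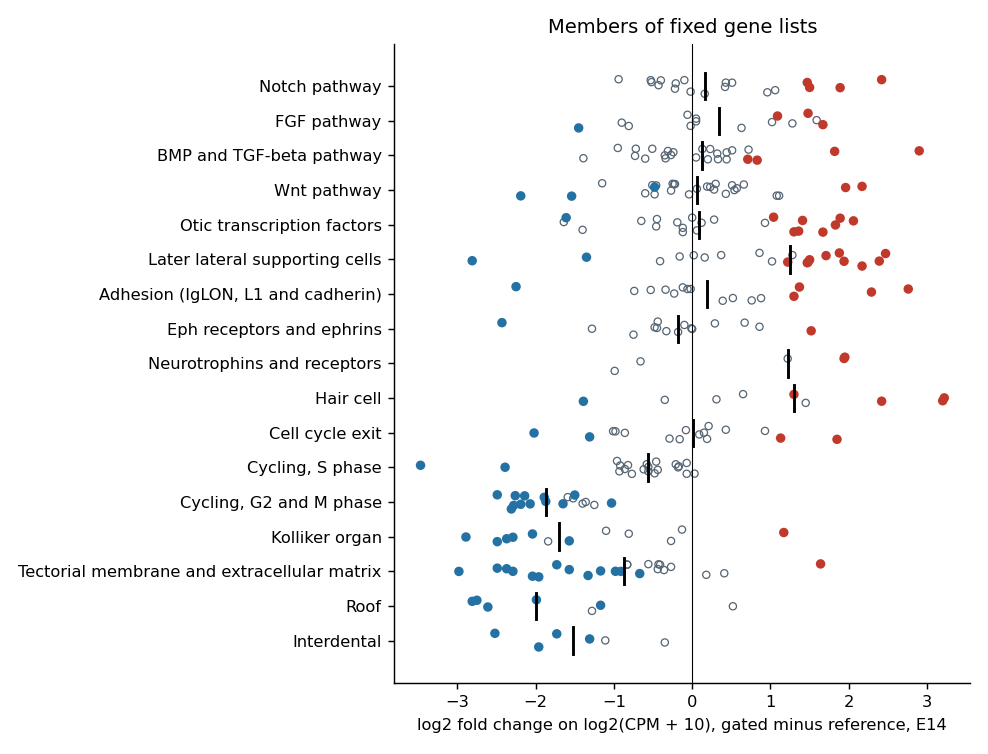
Log2 fold change on log2(CPM + 10) of the gated against the reference cells at E14 (x axis) for each tested member of 17 gene lists (rows), with filled red or blue points for members at an adjusted p under 0.05, open points for the others and a bar at the list's median. The list of G2 and M phase genes lies to the left, with a median of -1.87, and the later lateral supporting cell genes lie to the right, with a median of 1.25.

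Cycling genes were low in the gated cells. Of 26 genes of the G2 and M phases, 17 were tested against the reference. Of these, 12 were lower and none was higher, with a median of -1.87, where 2.38% of all genes tested were lower. The filter of 10 CPM averages all classes, so members could pass it through the classes where they are higher. In the age comparison, which holds gated profiles only, 7 of the 26 passed it. The count and median thus describe the members that the filter admitted. Against the Fgf20-positive cells 12 of 17 were lower too (Top2a in place of Cdc20), with a median of -2.07. Without E14 replicate 1, 1 of 16 was called against either class, and without replicate 2 none was, so the count needs both libraries. With a pseudocount of 1 CPM, without the filter and under the stricter gate (UMIs of both Prox1 and Fgfr3), 6, 5 and 6 were lower against the reference and 3, 3 and 3 against the Fgf20-positive cells, where 1 was without the block. At least 5 of the 26 genes had a UMI in 2 of 107 gated cells (1.87%; 2 of 49 in replicate 1 and 0 of 58 in replicate 2), in 821 of 4687 reference cells (17.5%; 15.1% and 19.2%) and in 42 of 182 Fgf20-positive cells (23.1%; 18.4% and 26.4%). Drawn down to 1500 UMIs per cell, the shares were 0 of 107 (exact 95% interval 0 to 3.39%), 515 of 4687 (10.99%, 10.1 to 11.9) and 24 of 182 (13.2%, 8.64 to 19.0). The gated share was the lowest in both libraries, also with every cell drawn down to 1500 UMIs. Thinning does not undo the selection by depth in the gate. In all, 11 of 107 gated, 715 of 4687 reference and 56 of 182 Fgf20-positive cells held over 3000 genes. Without such cells 15 of 16 G2 and M genes tested were lower than in the reference and 12 than in the Fgf20-positive cells. The part of depth selection was not tested further.

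Single genes rest on few transcripts. The exact intervals of the ratios count each UMI as a separate draw, so they are too narrow where a few cells hold several UMIs. Cdk1, the kinase that drives entry into mitosis, had 4 UMIs in 2 gated cells and stood at 5.19 and 2.70 CPM, against 52.5 and 65.5 CPM in the reference and 76.2 and 80.7 CPM in the Fgf20-positive cells. The ratio of the reference to the gated cells was 6.83 (exact 95% interval 2.66 to 25.1). Ccnb1, cyclin B1, had 1 UMI (1.73 and 0 CPM against 38.6 and 45.5 CPM in the reference), a ratio of 18.5 (3.31 to 731). Ube2c, the ubiquitin-conjugating enzyme of the anaphase-promoting complex, had 8 UMIs in 6 cells, all in replicate 1 (34.3 and 0 CPM against 98.9 and 119 CPM). Birc5 (survivin) had 12 UMIs in 2 cells of that replicate, and its ratio was 3.02 (1.73 to 5.86). Mki67, the proliferation antigen Ki-67, had 1 UMI, and Cenpf, a kinetochore protein, had 2. Hmgb2, a chromatin protein abundant enough to be measured in both libraries, was at 243 and 307 CPM against 523 and 620 CPM in the reference and 470 and 582 CPM in the Fgf20-positive cells (-1.03, SE 0.15, limma adjusted p = 0.000396). Cdc20, the activator of the anaphase-promoting complex, was at 16.2 and 18.3 CPM against 66.0 and 67.9 CPM, and Cenpa, the histone of centromeres, at 39.1 and 10.2 CPM against 111 and 135 CPM.

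S phase genes moved less: of 21 tested of 24 listed, 2 were lower against each class, Pclaf and Rrm2, with a median of -0.56 against the reference and -0.42 against the Fgf20-positive cells. Pclaf, a factor bound to the replication clamp, was at 14.7 and 0 CPM (6 UMIs in 2 cells) against 144 and 188 CPM in the reference and 129 and 381 CPM in the Fgf20-positive cells. The reference to gated ratio was 13.4 (exact 95% interval 6.15 to 36.5). The clamp itself, Pcna, was at 51.8 and 35.2 CPM against 49.0 and 42.0 CPM (-0.07, SE 0.32). The licensing factor Mcm2 was at 62.8 and 38.3 CPM against 77.4 and 68.1 CPM (-0.48, SE 0.44), neither past the test. Of 29 genes of glutamine use and the citric acid cycle tested, 1, Idh2, was lower (150 and 71.8 CPM against 290 and 281 CPM), where 2.38% of all genes tested were lower. Of 16 genes of cell cycle exit and its control, Cdkn1b and the antiproliferative factor Btg2 (511 and 442 CPM against 234 and 191 CPM, 1.13) were higher. Lower were Cdkn1c, p57Kip2 (439 and 320 CPM against 979 and 907 CPM, -1.31), and Ccnd2, cyclin D2 (2 UMIs in 1 gated cell). Ccnd2 was low in the Fgf20-positive cells too, with 5 UMIs in 182 cells. Their ratio to the gated cells was 1.01 (exact 95% interval 0.165 to 10.6). Cdkn1b stood at similar levels in the Fgf20-positive cells (0.11, SE 0.28), in which at least 5 G2 and M genes had a UMI in 23.1% of cells.

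**Figure D4:**
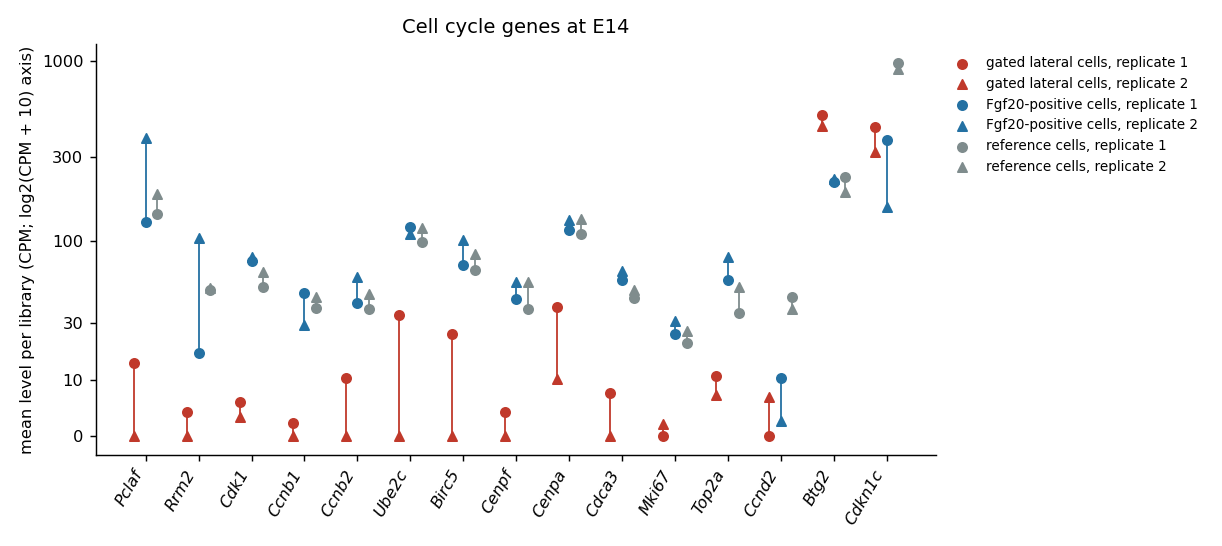
Mean level (y axis, CPM on a log2(CPM + 10) axis) of 15 cell cycle genes in the gated (red), Fgf20-positive (blue) and reference (grey) cells of the 2 E14 libraries, with a line joining both replicates of a class. Genes of the G2 and M phases, such as Cdk1 at 5.19 and 2.70 CPM, lay lowest in the gated cells, and Btg2 lay highest there.

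Genes of the G2 and M phases are known to share promoter elements, the CCAAT box and the cell cycle homology region (CHR). Through the CHR their expression is held down outside these phases. The promoters of the 12 such genes called lower were searched for CCAAT and for TTTGAA or TTTAAA on both strands. The windows were those of RefSeq on the GRCm38.p6 assembly. In the 120 bases before the start, 9 of the 12 held CCAAT (75%, against 29% of 6811 windows of genes tested), 7 held the CHR letters (58.3%, against 7.91%) and 6 held both (50%, against 2.11%). Over 300 bases, from 250 before the start to 50 after it, the shares were 83.3%, 91.7% and 83.3% against 43.3%, 21.6% and 8.79%. The 12 were drawn from a list of known G2 and M genes, so these shares describe that list and are no finding on the gated cells. Members of the list that were not called were not searched beside them. A match of letters is a description and not a bound site. The 6 promoters with both, and that of Birc5, which held neither in this window, are given 5′ to 3′ along the gene, with matches of either strand in capitals.
Ccnb1 (chr13:100786487-100786606, minus strand): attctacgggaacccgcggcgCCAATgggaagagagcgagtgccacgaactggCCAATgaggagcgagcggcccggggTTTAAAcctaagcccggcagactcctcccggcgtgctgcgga
Cdk1 (chr10:69352913-69353032, minus strand): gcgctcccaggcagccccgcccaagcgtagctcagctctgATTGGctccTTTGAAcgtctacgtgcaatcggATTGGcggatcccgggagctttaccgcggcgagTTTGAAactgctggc
Cdc20 (chr4:118437344-118437463, minus strand): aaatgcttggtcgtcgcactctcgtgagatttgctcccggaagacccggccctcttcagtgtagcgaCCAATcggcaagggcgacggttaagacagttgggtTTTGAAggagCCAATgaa
Ube2c (chr2:164769809-164769928, plus strand): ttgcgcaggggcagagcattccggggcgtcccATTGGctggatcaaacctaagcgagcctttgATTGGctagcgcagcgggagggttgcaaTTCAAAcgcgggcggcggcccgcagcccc
Cenpa (chr5:30666766-30666885, plus strand): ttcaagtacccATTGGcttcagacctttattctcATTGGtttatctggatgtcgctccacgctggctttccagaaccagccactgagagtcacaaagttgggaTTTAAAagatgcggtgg
Hmgb2 (chr8:57511723-57511842, plus strand): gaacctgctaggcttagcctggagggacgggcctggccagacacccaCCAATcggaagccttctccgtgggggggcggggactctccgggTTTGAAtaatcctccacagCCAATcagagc
Birc5 (chr11:117849117-117849236, plus strand): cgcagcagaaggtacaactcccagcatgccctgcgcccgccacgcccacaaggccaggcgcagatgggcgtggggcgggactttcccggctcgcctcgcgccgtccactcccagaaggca

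Against the Fgf20-positive cells, taken as the nearest prosensory population, 57 of 8882 genes were higher in the gated cells (0.642%) and 98 were lower (1.1%). These fits share the gated profiles with the comparison above. Of the 182 Fgf20-positive cells, 71 held a UMI of neither Sox2 nor Cdkn1b. Like the reference, this class was not freed of Bmp4 or Oc90 cells, so part of the falls in roof and outer genes may be set by the gate. Leaving out a library gave 4 to 100 higher and 1 to 214 lower: 9 and 13 without E14 replicate 1, 4 and 1 without E14 replicate 2, 35 and 62 without E16 replicate 1, 97 and 192 without E16 replicate 2 and 100 and 214 without E16 replicate 3. The genes called both times an E14 library was left out were Cryab and Fkbp1a (higher) and Anxa5 (lower), and every other call against the Fgf20-positive cells was lost in at least 1 of these fits. Cryab was at 2808 and 3297 CPM in the gated cells and 917 and 872 CPM in the Fgf20-positive cells, higher by 1.76 (SE 0.11, limma adjusted p = 2.59e-08). Fkbp1a, an immunophilin, was at 1212 and 1346 CPM against 519 and 542 CPM, higher by 1.25. Anxa5, annexin A5, was at 497 and 550 CPM against 1323 and 1347 CPM, lower (-1.34, SE 0.13). For all 3 the levels of the classes did not overlap between libraries.

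Of the 7 lateral markers, 2 were higher than in the Fgf20-positive cells, Bmp2 (2.02, SE 0.41, limma adjusted p = 0.0136) and Elmo1 (1.74, SE 0.37, adjusted p = 0.0199). Neither passed with E14 replicate 1 or 2 left out, and none of the 7 did with a pseudocount of 1 CPM, without the filter, under the stricter gate or without the block, while 5 did with summed UMIs. The other 5 had changes of 0.30 to 1.15 without passing. Lsamp differed by 0.92 (SE 0.31, adjusted p = 0.175), Nrcam by 0.91 (SE 0.39, adjusted p = 0.332) and Tgfbr1 by 1.06 (SE 0.35, adjusted p = 0.164). The ligand subunit Inhba, of activins, was at 59.0 and 51.8 CPM in the gated cells, 7.52 and 14.5 CPM in the Fgf20-positive cells and 5.61 and 5.14 CPM in the reference. It was higher than both by 1.66 and 2.09. Cdh1, E-cadherin, was at 116 and 87.7 CPM against 27.8 and 30.2 CPM in the Fgf20-positive cells (1.51, limma adjusted p = 0.0153). Other genes that were higher were the protease inhibitor Serpine2 (306 and 234 CPM against 90.2 and 77.2 CPM, 1.57), Itih5 (316 and 250 CPM against 87.0 and 107 CPM, 1.45) and Mdm1. Gadd45g (558 and 363 CPM against 93.8 and 70.9 CPM) was higher by 2.33, but by 1.19 (adjusted p = 0.177) without the cells that held Pou4f3. Without them Hes6 went from 1.58 to 0.75 (adjusted p = 0.214) and Ccer2 from 3.61 to 0.88, and the counts became 38 higher and 83 lower. The calls of Btg2, Fgfr1, Cdh1 and Myo6 on the higher side and Jag1, Isl1, Sox11, Ptn, Mia, Lum and Top2a on the lower were lost in the same step. In that fit Jag1 still differed by -1.21 (SE 0.31, limma adjusted p = 0.0712) and Isl1 by -0.56 (SE 0.15, limma adjusted p = 0.0802).

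On the lower side, 5 of 22 otic transcription factors tested were lower than in the Fgf20-positive cells and none was higher. The orphan nuclear receptors Nr2f1 (362 and 488 CPM against 650 and 803 CPM, -0.77) and Nr2f2 (8.91 and 47.1 CPM against 99.3 and 103 CPM, -1.76), the factor Sox11 (277 and 395 CPM against 481 and 618 CPM, -0.70), Isl1 and Tbx2 made up the 5. In cells of 3000 to 8000 UMIs none of 23 was lower, with E14 replicate 1 or 2 left out none of 22 was, without the cells with a Pou4f3 UMI 3 were lower, and without cells of over 3000 genes 3 were higher and 5 lower. Fgf10, a ligand expressed on the medial side of the duct, was at 10.3 and 10.3 CPM against 37.6 and 86.3 CPM (-1.74, SE 0.33, limma adjusted p = 0.00876), and Wnt5a was at 8.78 and 6.84 CPM against 29.8 and 63.6 CPM (-1.61). Tecta, alpha-tectorin, was at 341 and 377 CPM against 605 and 805 CPM (-0.94), and 6 of 12 Kolliker's organ genes were lower. None of the 12 was lower with E14 replicate 1 or 2 left out, and 3 were without E16 replicate 1, 2 without the cells with a Pou4f3 UMI and 1 without the block. Among the 8 genes with the largest fall, 6 are cell cycle genes (Pclaf, Cdk1, Ube2c, Cdca3, Cenpf and Birc5). Another, the DNA helicase Brip1, had no UMI in the gated cells against 44.1 and 66.9 CPM, at least 7.66-fold lower over the pooled class with the same floor of 3 UMIs. The remaining gene, Rasl11b, a small GTPase, was at 29.1 and 24.6 CPM against 182 and 170 CPM (-2.34).

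Between E14 and E16 the cells under the same gate were compared as libraries of different animals. The ages were deposited in separate tables; each cell is scaled to its own total, but the tables were not shown to count every gene alike, and age and library collection cannot be told apart beyond the spread among libraries. Of 8647 genes tested, 247 were higher at E16 (2.86%) and 119 were lower (1.38%) in limma with 3 residual degrees of freedom, and the median gene moved by -0.11. Leaving out a library gave 130 to 327 higher and 11 to 265 lower (143 and 11 without E14 replicate 1, 145 and 27 without E14 replicate 2, 185 and 77 without E16 replicate 1, 130 and 36 without E16 replicate 2, 327 and 265 without E16 replicate 3). In all, 93 higher and 9 lower genes were called both times an E14 library was left out. Among the genes named below these were Jag1, Lfng, Hes5, Prss23, Crabp1, S100a1, Calb1, Ptn, Mia and Xist on the higher side and Fst, Otol1, Gadd45g, Slc29a1 and Jun on the lower. Many ribosomal protein and Gm-numbered genes and several mitochondrial genes were also kept on the higher side, though the naming rule leaves them out. Their part in the age changes was not tested. Every other call with age named below was lost in at least 1 of these fits. Some of this was not particular to the gate: the change of the reference cells over the same libraries is given beside the genes. Xist, the RNA of the inactive X chromosome, went from 258 and 0 CPM to 1766, 1736 and 1232 CPM. E14 replicate 2 had nearly none in the reference either (0.953 CPM against 374 CPM in replicate 1), so its change of 4.92 (beside 4.48 in the reference) depends in part on that library, and was 2.55 without it. How many animals of each sex a library pooled is not given in the sources used here, and a difference in sex makeup between libraries was not tested for its part in the age changes. Of 7 mitochondrial genes tested, 6 were higher at E16, with a list median of 1.66. In the E14 gated cells mt-Co2 and mt-Co3 had no UMI, and mt-Nd3 is not in the E14 table used here. The list, of 8 genes at E14 and 9 at E16, summed in the gated cells to 5891 and 8624 CPM at E14 and 21310, 17270 and 14030 CPM at E16, beside 6141 and 8379 CPM and 18740, 15670 and 12880 CPM in the reference. The stress genes Jun, Junb and Ier2 were lower at E16, and that list summed to 4247, 4827 and 3830 CPM there. The part of these technical measures in the age changes was not tested.

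Markers of other cell types moved with age too. Hair cell genes summed to 3066, 1553 and 816 CPM in the E16 gated cells (1354, 584 and 366 CPM in the reference), and Pou4f3 was at 218, 72.6 and 3.96 CPM. Of 12 hair cell genes tested, 4 were higher at E16 (Myo6, Pvalb, Espn and Selenom) with a median of 0.60. None was higher without E14 replicate 2, without E16 replicate 2 or under the stricter gate, 2 were without E14 replicate 1, and 1 was higher and 1 lower without E16 replicate 1. Without the cells with a Pou4f3 UMI, 6 were tested and none passed, and 239 genes were higher and 93 lower in all. Of 11 Kolliker's organ genes, 6 were higher (Epyc, Calb1, Fgf10, Crabp1, Ptn and Mia) and 1, Cpxm2, was lower, with a median of 1.47. That list summed to 2045 and 1580 CPM in the gated cells at E14 and to 3060, 3653 and 4498 CPM at E16. The part of these cell types in the age changes was not tested.

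Of 21 Notch pathway genes tested with age in the gated cells, 3 were higher and none was lower at E16, with a median of 0.32. Jag1 went from 11.7 and 19.2 CPM to 259, 200 and 185 CPM, a change of 3.15 (SE 0.34, limma adjusted p = 1.41e-06), beside 1.64 in the reference. Lfng went from 17.9 and 44.1 CPM to 254, 373 and 310 CPM, a change of 3.04, beside 1.35. Hes5 went from 31.9 and 10.8 CPM to 141, 239 and 686 CPM, a change of 3.33, beside 2.15. No E14 library overlapped an E16 library for any of these. Prss23, a serine protease of later supporting cells, went from 28.0 and 36.4 CPM to 375, 430 and 367 CPM, a change of 3.25 (SE 0.29) beside 0.94 in the reference. Crabp1, a retinoic acid binding protein, went from 32.9 and 0 CPM to 143, 106 and 258 CPM, a change of 3.02 that was matched in the reference (3.02). Sox2 rose by 1.38 (beside 1.01; 0.66 with an adjusted p of 0.304 without E14 replicate 2), to 464, 435 and 365 CPM, with the call also lost without E16 replicate 2, under the stricter gate and in cells of 3000 to 8000 UMIs, and S100a1 by 2.1 (beside 1.28), to 1940, 2260 and 2721 CPM.

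On the lower side, Isl1 went to 541, 456 and 350 CPM (-1.13, SE 0.22, limma adjusted p = 0.00322, beside -0.34 in the reference), with adjusted p-values of 0.0698 and 0.0834 without E14 replicate 1 and 2. Fst, follistatin, which binds activins, went from 248 and 367 CPM to 6.88, 35.5 and 79.7 CPM (-2.93, beside -1.11 in the reference). Otol1, an otolin of extracellular matrix, changed by -3.00 (beside -1.63), Gadd45g by -2.89 (beside -0.62; -1.89 without the cells with a Pou4f3 UMI) and the neuropeptide precursor Tac1 by -2.79 (beside -1.53). The nucleoside transporter Slc29a1 changed by -2.60 (beside -0.82) and the kinase Sgk1 by -2.38 (beside -0.58). Of the lateral markers, 2 of 7 were higher at E16: Nrcam reached 275, 297 and 216 CPM (1.46, beside 0.92) and Fzd9 reached 210, 269 and 355 CPM (1.37, beside 0.59). Neither passed without E14 replicate 2, under the stricter gate or in cells of 3000 to 8000 UMIs. Bmp2 stood at 97.2, 81.4 and 72.1 CPM (-0.06, SE 0.36, beside 0.32), Lsamp at 116, 146 and 131 CPM (0.24, SE 0.31, beside 1.10) and Tgfbr1 at 225, 263 and 147 CPM (0.49, SE 0.30, beside 0.60), none past the test. Of the G2 and M genes 7 could be tested and none passed, with a median of -0.10.

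The difference between gated and reference cells itself changed with age for 8 genes upward (0.0901% of 8882) and 4 downward (0.045%), where 478 genes had an unadjusted p under 0.05. No call was kept both times an E14 library was left out: there were 2 upward and 1 downward without E14 replicate 1, none without E14 replicate 2, 3 and 1 without E16 replicate 1, 10 and 8 without E16 replicate 2 and 11 and 14 without E16 replicate 3. Under the same gate at P1, Pou4f3 was at 9.41, 1.09, 2.45 and 37.7 CPM, beside 13.4, 13.9, 9.99 and 19.4 CPM in the reference. At P7 it was at 261.5 and 433.7 CPM, beside 68.0 and 64.7 CPM. The gated class thus held hair cell transcripts at P7, and its cell makeup at later ages was not checked further. Fzd9 was at 774, 712, 595 and 681 CPM in the 4 P1 libraries and 497 and 268 CPM in the 2 P7 libraries. Hes5 was at 1035, 1866, 1544 and 2010 CPM and at 137 and 304 CPM. Lsamp was at 201, 297, 263 and 203 CPM at P1 and 93.1 and 66.6 CPM at P7, and Bmp2 at 27.4, 99.2, 60.8 and 36.2 CPM and at 38.5 and 25.8 CPM. Bmp2 and Lsamp were above the reference in every library of every age, and the later ages were not tested.

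**Figure D5:**
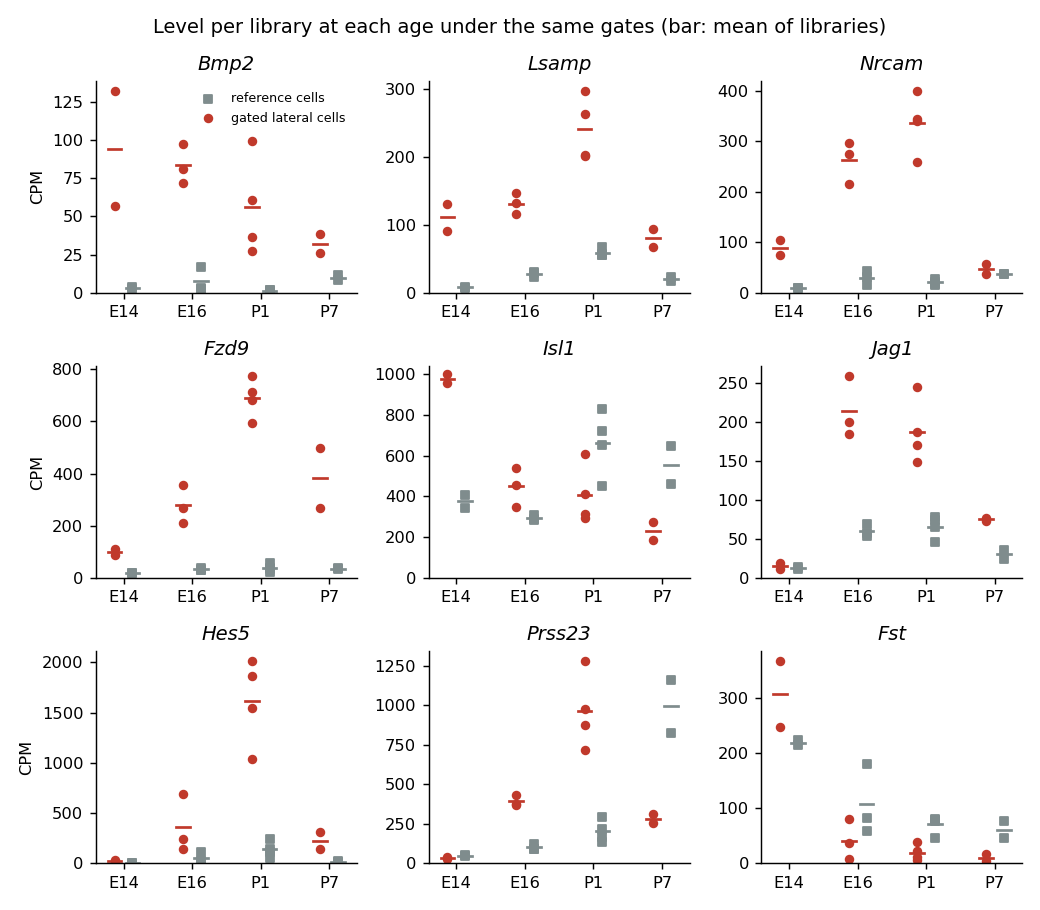
Level per library (y axis, CPM) of 9 genes at E14, E16, P1 and P7 (x axis) in the gated cells (red circles) and the reference cells (grey squares), with a bar at the mean of the libraries. Hes5 reached 1035 to 2010 CPM in the gated cells at P1, and the gated levels of Isl1 (958 and 1000 CPM) and Fst (248 and 367 CPM) lay highest at E14.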

How the data were processed

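The E14 and E16 tables, and those of P1 and P7 for levels only, were used with the groups and replicate numbers of the sample labels. The deposited values are natural log values (ln): per the methods and the submitters' processing notes, the authors aligned reads to mm10 and counted UMIs with Cell Ranger 2.1.1, filtered cells and genes and normalized in Seurat 2.0. The log base and the scale of 10000 were read from the values, and UMIs recovered from them were whole (to 2%) in 100% of non-zero values. In 11 E14 barcodes the libraries coincided, no doublet caller was run, and leaving out cells of over 3000 genes is an alternative.

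For each class and library the mean over cells of UMIs per 1000000 UMIs (CPM) was taken. A class under 20 cells in a library was left out, which dropped the Fgf20-positive cells of E16 replicate 1. Profiles were compared on log2(CPM + 10) with limma 3.58.1 in R 4.3.3 (mean trend, two-sided, Benjamini-Hochberg) for genes that averaged 10 CPM or more and occur in both tables (19593 genes), at an adjusted p of 0.05. The E14 and E16 classes shared 1 fit with library as a block, since the classes of a library are the same capture. The age comparison had no block. Per the methods a collection was a pool of littermates. In the shared fit, p-values measure how differences between classes vary from library to library over both ages. In the age comparison they measure the spread between libraries of an age. The fits also draw each variance toward a trend over all genes, with 12.7 (shared fit) and 19.6 (age fit) prior degrees of freedom. The fits were tested on simulated data. Replicate numbers do not pair the ages (correlations of -0.0373 and 0.00297 between same-numbered libraries). Intervals are exact (Clopper-Pearson) at 95%, the floor is 3 UMIs, and thinning drew each cell to 1500 UMIs.

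Genes were named by 4 rules: gate genes as a description; the marker genes; the 8 (age: 6) largest changes in each direction among genes called that moved the same way in both E14 libraries (age: without overlap of the libraries), leaving out mitochondrial, ribosomal, haemoglobin, Gm-numbered and Rik genes; and up to 4 called members per direction of 29 lists. Where other members or genes are named, they were chosen after their values were seen. The members and lists were chosen with earlier results of these data known. Gene positions are from GENCODE on GRCm38, promoters from RefSeq. Alternatives were another pseudocount (1 CPM), no filter, summed UMIs, median centring, cells of 3000 to 8000 UMIs, a stricter gate, another reference, E14 alone, no block or a block, and each library left out. Removing the cells with a Pou4f3 UMI was chosen after seeing the data.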

Additional observations from a re-analysis of the deposited data

Results flagged for a closer look

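For 12 genes the difference between gated and reference cells differed between E16 and E14, by the interaction term of the fit over both ages; values are E16 minus E14 on the log2(CPM + 10) scale. These calls are fragile: none was kept in both fits that left out 1 E14 library, and their causes were not tested.

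Gmnn, geminin, an inhibitor of replication licensing, changed by 3.38 (SE 0.61, limma adjusted p = 0.0374). At E14 it was at 6.53 and 6.24 CPM in the gated cells and 52.4 and 55.8 CPM in the reference, and at E16 at 72.2, 66.4 and 92.4 CPM and 23.8, 24.1 and 19.8 CPM, so that the order of the classes turned in all libraries. The E14 gated level of Gmnn rests on 4 UMIs in 4 cells. Mlf1 changed by 2.45 (SE 0.47, limma adjusted p = 0.0488), from 1.73 and 3.89 CPM to 45.1, 51.2 and 4.79 CPM in the gated cells, with E16 replicate 3 near the E14 level. Its E14 gated level rests on 2 UMIs in 2 cells. Gm45645 changed by 2.59 (SE 0.49, limma adjusted p = 0.0488). It had no UMI in the E14 reference cells and 3 in the E14 gated cells, so this value depends on the added 10 CPM.

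Prss23 changed by 2.31 (SE 0.34, limma adjusted p = 0.00483), from 28.0 and 36.4 CPM in gated and 50.1 and 42.0 CPM in reference cells at E14 to 375, 430 and 367 CPM and 117, 88.1 and 89.0 CPM. Igfbp5, which binds insulin-like growth factors, changed by 1.67 (SE 0.23, limma adjusted p = 0.00367), from 283 and 183 CPM to 1345, 1577 and 776 CPM in the gated cells. Ptn changed by 1.56 (SE 0.17, limma adjusted p = 0.00018), from 230 and 220 CPM to 839, 1078 and 700.2 CPM in the gated cells, while the reference stayed between 1059 and 1588 CPM. Tectb changed by 1.20 (SE 0.20, limma adjusted p = 0.0217) and Sfrp1, which was lower in the gated cells at E14, by 0.88 (SE 0.15, limma adjusted p = 0.0282).

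The other 4 went the opposite way. Ly6h changed by -1.63 (SE 0.31, limma adjusted p = 0.0488), with gated levels of 190 and 211 CPM at E14 and 79.7, 39.6 and 58.2 CPM at E16 and reference levels of 96.4 to 113 CPM throughout. Clu, clusterin, changed by -1.12 (SE 0.12, limma adjusted p = 0.00018), with E16 replicate 3 apart from the other E16 libraries in both classes (3082 CPM in gated and 7230 CPM in reference cells). Gas5 changed by -0.51 (SE 0.09, limma adjusted p = 0.0393) and the nuclear RNA Malat1 by -0.31 (SE 0.06, limma adjusted p = 0.0354). Without the cells with a Pou4f3 UMI the calls of Gmnn, Gm45645, Mlf1, Sfrp1, Ly6h, Gas5 and Malat1 were lost.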

How the results depend on the processing

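Among the values followed here that passed the test, none turned its sign under the alternatives run; the balance of higher to lower genes could turn (30 and 29 against the reference without E14 replicate 2), as could values that did not pass, such as the age change of Bmp2 (-0.06, and 0.48 without E14 replicate 1). Leaving out 1 library at a time gave 30 to 229 higher and 29 to 331 lower genes for gated against reference cells, 4 to 100 and 1 to 214 against the Fgf20-positive cells, 130 to 327 and 11 to 265 for E16 against E14, and 0 to 11 and 0 to 14 for the age difference; where an age kept 1 library, that library was assumed to vary like the others. The counts that moved by over 1.5 times were these. Against the reference, 104 higher without the filter and 317 lower without cells of over 3000 genes. Against the Fgf20-positive cells, 31 higher and 61 lower with a pseudocount of 1 CPM, 18 and 32 without the filter, 140 and 226 without cells of over 3000 genes, and 88 higher both with summed UMIs and with E14 alone. For E16 against E14, 133 higher and 37 lower in cells of 3000 to 8000 UMIs, 100 and 15 under the stricter gate, and 63, 57, 73 and 51 lower with a pseudocount of 1 CPM, without the filter, with summed UMIs and with centred profiles. For the age difference, 3 higher and 1 lower with a pseudocount of 1 CPM, 0 and 0 without the filter, 13 and 13 without cells of over 3000 genes, 5 and 1 without cells with a Pou4f3 UMI, 4 higher in cells of 3000 to 8000 UMIs, and 2, 7 and 7 lower with summed UMIs, centred profiles and the reference freed of Bmp4 and Oc90. Some of these fits also held fewer cells or libraries, and the causes of the moves were not tested.

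Without the replicate block, which here stands for the capture, the fit called 96 higher and 101 lower genes against the reference, 8 and 14 against the Fgf20-positive cells and 0 and 0 for the age difference. In the age comparison the labels give libraries only a number in common, with correlations of -0.0373 and 0.00297 over 2 pairs, and a block on it gave 338 higher and 273 lower genes. Over the 34 genes followed in the first comparison, 345 of the values under other settings kept direction and call and 27 lost the call; with a library left out these were 135 and 35. Against the Fgf20-positive cells these counts were 252 and 68 (120 and 43), for E16 against E14 100 and 8 (58 and 2), and for the age difference 60 and 60 (29 and 31). With 107 gated cells, a gene without a UMI may still be present at up to 7.16 CPM.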
